A study of Mus musculus with 6 samples.

Results

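The complement genes C1qa, C1qb, C1qc, C3, C3ar1, C5ar1, Cfb and Cfp, and the complement regulator gene Cd55, were followed across 3 sorted populations of mouse bone marrow cells. With earlier results of these data known, the 9 genes were chosen by symbol. Of these, 8 had a probe set listed for that gene alone, with 1 probe set each, among 19938 genes measured in this way, and C3 was not analysed here. Cd55 was lower in both populations from GM-CSF cultures: it was 39.7-fold lower in GM-BMDC and 19.6-fold lower in GM-BMM than in M-BMM. The Cd55 signal was low in GM-BMDC and on GM-BMM array 2, so these folds may in part measure M-BMM against background. Cfb separated the populations differently, with its highest level in GM-BMM, 16.5-fold above GM-BMDC and 5.55-fold above M-BMM. The receptor genes C3ar1 and C5ar1 were lower in GM-BMDC than in GM-BMM, and the differences in C1q genes and Cfp did not pass the test.

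Complement is a set of proteins that tags microbes and dying cells for uptake and calls in myeloid cells. C1q, assembled from the chains that C1qa, C1qb and C1qc encode, binds its targets and activates the proteases C1r and C1s to start the classical pathway. The alternative pathway uses factor B, which forms the protease of its convertase, and properdin, which holds that convertase together, while CD55 on the cell surface speeds the decay of convertases. Macrophages are a major source of C1q, and they respond to the fragments C3a and C5a through dedicated receptors.

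The marrow came from C57BL/6J mice labelled male and 6 to 10 weeks old, and the cultures lasted 7 days. GM-BMDC, labelled dendritic cells, and GM-BMM, labelled macrophages, both grew with 25 ng/ml of GM-CSF, a myeloid growth factor, and were gated as MHCIIhighF4/80low and as MHCIIlowF4/80high. M-BMM were macrophages gated as CD11b+F4/80+ from cultures that held 20% L cell conditioned medium as their source of M-CSF, a medium that can carry other secreted factors, so growth factor, medium and gate cannot be told apart between GM-BMM and M-BMM. Each population had 2 arrays labelled biological replicates, and RNA was 300 ng per array. The labels do not say which animals or cultures stand behind an array, so a p-value here covers only array-to-array spread. That spread may be technical, though the 2 arrays of each GM-CSF population also differ in sex-linked RNA, as given below.

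Values are RMA signals on the log2 scale, and differences are log2 differences of group means with their standard errors from limma and n = 2 arrays per population. A gene was called where limma's p, adjusted over all 19938 genes in that comparison by the Benjamini-Hochberg method, was under 0.05. The files mark no background. Values under 5.04, which is the 25th percentile over the whole table, are named low here; where one population's mean is low, a fold may measure the other population against background. Signals of different probe sets are not on a common scale, so levels are compared only within a gene. In sorted bulk samples, fewer cells of a type and less RNA per cell cannot be told apart.

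The labelled cell types were checked against marker genes. All 8 genes of a dendritic cell list were called higher in GM-BMDC than in either macrophage population, but GM-BMDC kept macrophage genes at clear levels: the mean signal of 8 measured macrophage genes was 9.62 and 10.31 on the GM-BMDC arrays, 11.27 on both GM-BMM arrays and 10.91 to 11.01 on the M-BMM arrays. Adgre1, which encodes F4/80, measured 9.39 and 10.91 in GM-BMDC, 12.32 and 12.61 in GM-BMM, and 12.73 and 12.79 in M-BMM. Of the 12 neutrophil and granule genes, 0 were called higher and 3 lower in GM-BMDC than in GM-BMM, and their mean signal was 6.38 and 6.57 in GM-BMDC, 7.15 and 7.68 in GM-BMM, and 6.91 and 6.99 in M-BMM. B lymphocyte genes moved with GM-BMDC in part. Of 7 measured, 3 were called higher and 0 lower in GM-BMDC than in GM-BMM, and 2 higher and 1 lower than in M-BMM. Their mean signal was 5.92 to 6.56 in GM-BMDC, 5.36 to 5.45 in GM-BMM, and 5.81 to 5.99 in M-BMM, and 0 of the 7 were low on all arrays. Cd79a, a chain of the B cell receptor complex, measured 7.15 and 6.23 in GM-BMDC, 3.99 and 4.49 in GM-BMM, and 4.73 and 4.49 in M-BMM. The gene called lower in GM-BMDC than in M-BMM was Cd79b, of the same complex. Cd79b measured 8.49 and 7.32 in GM-BMDC, 7.69 and 7.95 in GM-BMM, and 10.16 and 10.21 in M-BMM. Pax5, Cr2 and Vpreb3 were not called in any comparison. The part of B cells in the complement values was not tested.

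On some arrays, sex-linked RNA also went against the labels. Xist, the RNA of the inactive X chromosome, measured 11.66 and 10.68 in GM-BMDC, 11.58 and 4.93 in GM-BMM, and 4.53 and 4.80 in M-BMM. The Y-linked gene Eif2s3y measured 3.94 and 8.80 in GM-BMDC, 3.66 and 9.10 in GM-BMM, and 9.32 and 9.17 in M-BMM. The GM-BMDC and GM-BMM arrays numbered 1 therefore showed Xist without Eif2s3y, and GM-BMDC array 2 showed both. The calls of members below are given with and without both GM-CSF arrays numbered 1. In that case 2 arrays are left out, and the remaining lone arrays are assumed to vary like the M-BMM pair. GM-BMDC array 2, with Xist at 10.68, is kept. Such fits therefore cannot remove the difference in Xist between GM-BMDC and the kept arrays of GM-BMM and M-BMM.

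Of the 8 members, 0 were called higher and 4 lower in GM-BMDC than in GM-BMM, where 4.69% of all genes were called higher and 5.74% lower. Between GM-BMM and M-BMM, 1 member was called higher and 1 lower in GM-BMM, against 3.62% and 2.57% of all genes. Between GM-BMDC and M-BMM, 0 were called higher and 3 lower in GM-BMDC, against 7.76% and 8.9% of all genes. Arrays that did not overlap were more common than calls. In GM-BMDC against GM-BMM, both arrays lay above in 0 members and below in 5, against 26.7% and 24.6% of all genes. In GM-BMM against M-BMM they lay above in 2 members and below in 6, against 22.6% and 27.2%, and in GM-BMDC against M-BMM above in 0 and below in all 8, against 26.6% and 29.8%. The median member difference was -0.74 between GM-BMDC and GM-BMM (all genes 0.02), -0.43 between GM-BMM and M-BMM (all genes -0.02) and -1.19 between GM-BMDC and M-BMM (all genes -0.0024). The 3 comparisons share arrays, so their results are not independent of each other. Without both GM-CSF arrays numbered 1, the number of members called was 3 between GM-BMDC and GM-BMM, 4 between GM-BMM and M-BMM and 5 between GM-BMDC and M-BMM, while 1928, 1574 and 3113 of all genes were called, beside 2079, 1235 and 3323 with all arrays.

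**Figure D1:**
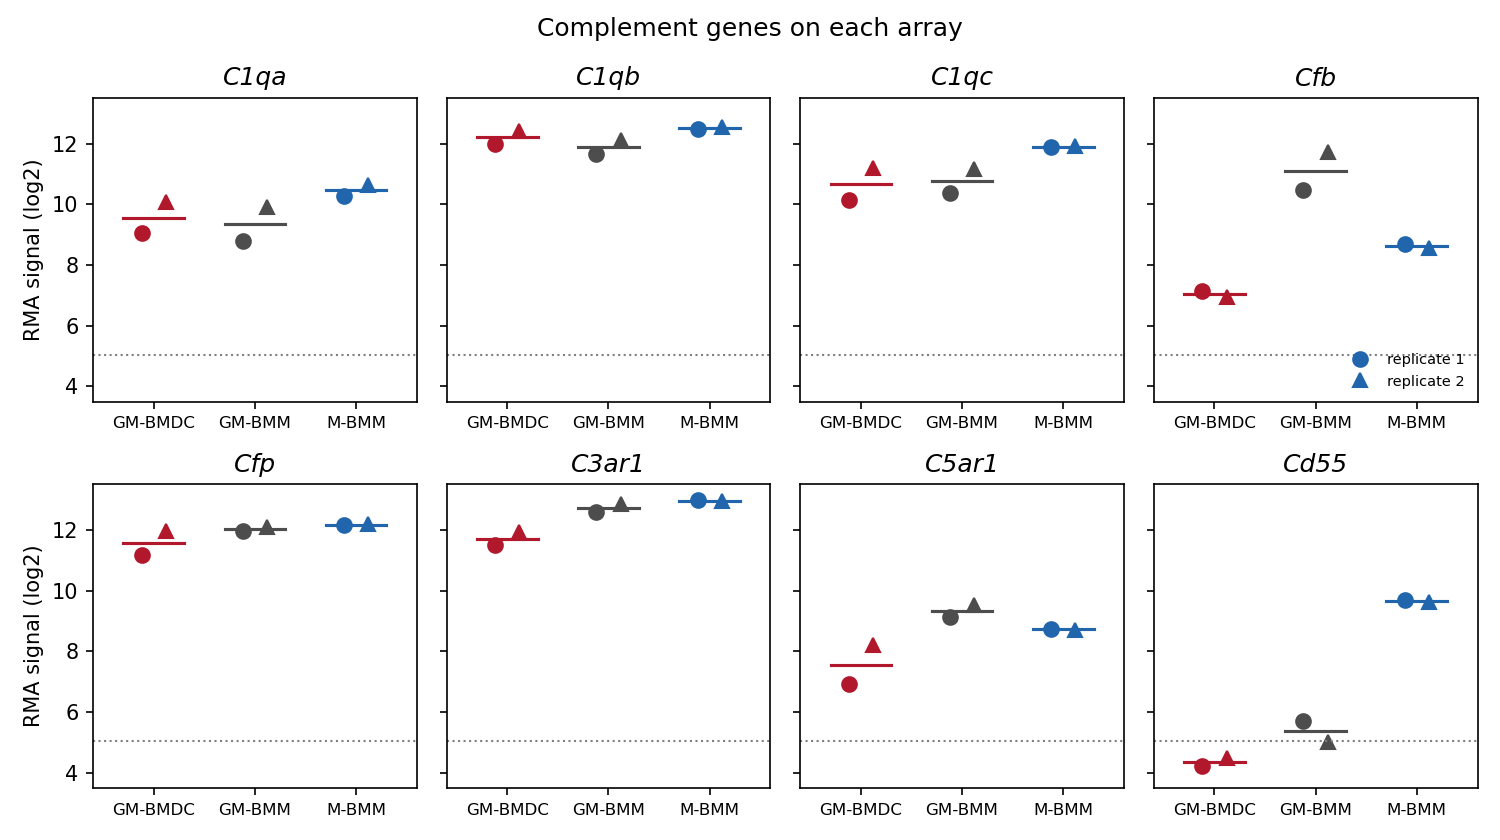
RMA signal (log2) of the 8 complement genes on each array, with GM-BMDC, GM-BMM and M-BMM from left to right, circles for replicate 1 and triangles for replicate 2; the dotted line is the low signal of 5.04. Cd55 lies at 9.61 or above on both M-BMM arrays and at 5.69 or below on the GM-CSF arrays, and Cfb lies at 10.45 or above on the GM-BMM arrays alone.

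The C1q chains, which recognise targets of the classical pathway, measured well above the low line in all 3 populations. The promoters of C1qb and C1qc are shown because the chains they encode form 1 protein and the genes lie next to each other; C1qa lies on the other side of C1qc in the RefSeq annotation. Each sequence, from RefSeq on GRCm38.p6, spans 250 bases before to 50 after the annotated start, 5′ to 3′ on the gene's strand, with capitals for motif matches on either strand. C1qb lies at chr4:136886151-136886450 and C1qc at chr4:136892865-136893164, both on the minus strand.
C1qb: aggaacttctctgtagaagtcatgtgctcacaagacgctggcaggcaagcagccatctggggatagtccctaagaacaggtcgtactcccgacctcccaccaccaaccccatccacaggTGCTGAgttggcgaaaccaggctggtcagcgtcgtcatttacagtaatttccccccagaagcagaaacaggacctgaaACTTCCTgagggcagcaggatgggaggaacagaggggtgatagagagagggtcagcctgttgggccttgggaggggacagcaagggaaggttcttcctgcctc
C1qc: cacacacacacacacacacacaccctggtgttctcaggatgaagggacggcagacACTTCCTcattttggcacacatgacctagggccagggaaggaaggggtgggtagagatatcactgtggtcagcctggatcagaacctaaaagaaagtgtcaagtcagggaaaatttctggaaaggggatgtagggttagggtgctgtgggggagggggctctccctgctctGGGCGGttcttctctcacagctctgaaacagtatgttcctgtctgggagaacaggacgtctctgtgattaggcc
Both held the PU.1-type ETS motif AGGAAGT, written as its reverse complement, which 9.35% of 32851 promoters of that length held on either strand. C1qb also held the MAF-type motif TGCTGA, as did 19.5% of promoters, and C1qc the GC box GGGCGG, as did 35.7%. A match is a run of letters and is not evidence of binding.

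C1qa measured 9.07 and 10.06 in GM-BMDC, 8.79 and 9.90 in GM-BMM, and 10.28 and 10.64 in M-BMM. C1qb measured 12.00 and 12.40 in GM-BMDC, 11.66 and 12.11 in GM-BMM, and 12.47 and 12.54 in M-BMM. C1qc measured 10.15 and 11.18 in GM-BMDC, 10.38 and 11.16 in GM-BMM, and 11.87 and 11.90 in M-BMM. For each chain the 2 GM-CSF populations overlapped, and both M-BMM arrays lay above all 4 GM-CSF arrays. Within each GM-CSF population, array 1 was the lower of the pair for every chain. The gap between the arrays was 0.995 in GM-BMDC and 1.11 in GM-BMM for C1qa, and 1.03 in GM-BMDC and 0.78 in GM-BMM for C1qc, which for both genes is about as wide as the differences between populations.

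The differences of the C1q genes did not pass the test in any comparison. Between GM-BMDC and GM-BMM they were 0.22 ± 0.41 for C1qa (95% interval -0.75 to 1.19, adjusted p = 0.834 by limma), 0.32 ± 0.19 for C1qb (-0.13 to 0.76, adjusted p = 0.399 by limma) and -0.11 ± 0.35 for C1qc (-0.94 to 0.72, adjusted p = 0.914 by limma). The intervals leave room for nearly a 2-fold difference in C1qc and more in C1qa. Between GM-BMM and M-BMM they were -1.11 ± 0.41 for C1qa (adjusted p = 0.194), -0.62 ± 0.19 for C1qb (adjusted p = 0.119) and -1.11 ± 0.35 for C1qc (adjusted p = 0.130). Between GM-BMDC and M-BMM they were -0.89 ± 0.41 for C1qa (adjusted p = 0.214), -0.30 ± 0.19 for C1qb (adjusted p = 0.371) and -1.22 ± 0.35 for C1qc (adjusted p = 0.0560).

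C1qc was near the threshold and passed it under some settings. Without GM-BMDC array 2, GM-BMDC minus M-BMM was -1.74 (adjusted p = 0.0117), and without either GM-BMM array it was -1.22 (adjusted p = 0.0362). Without either GM-BMDC array, GM-BMM minus M-BMM was -1.11 (adjusted p = 0.0497). Without both GM-CSF arrays numbered 1, C1qc was -0.71 (adjusted p = 0.0112) in GM-BMDC minus M-BMM and -0.72 (adjusted p = 0.0184) in GM-BMM minus M-BMM, smaller differences with a narrower spread. For C1qa the same 2 differences were then -0.40 and -0.56, and for C1qb -0.10 and -0.39, none of them called.

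**Figure D2:**
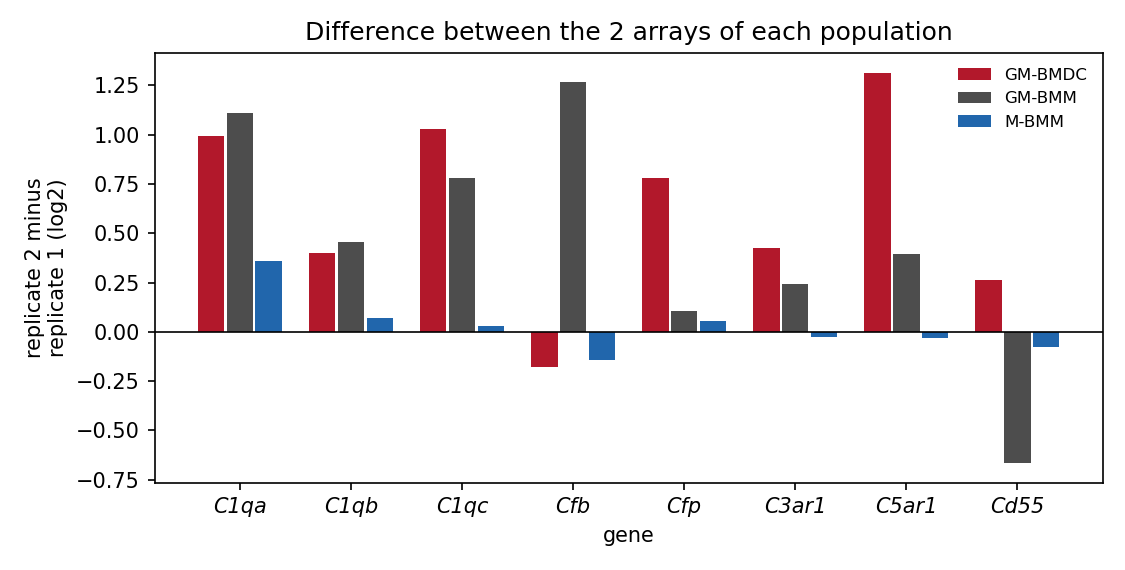
Signal of array 2 minus array 1 (log2) for each complement gene, with bars for GM-BMDC, GM-BMM and M-BMM from left to right. The C1q genes are higher on array 2 in both GM-CSF populations, Cfb differs by 1.27 within GM-BMM, C5ar1 by 1.32 within GM-BMDC, and no M-BMM gap exceeds 0.36.

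The wide gaps between replicates were found mainly in the GM-CSF populations. Across all genes, 5064 of 19938 (25.4%) were higher on array 2 in both GM-BMDC and GM-BMM, as were 6 of the 8 members, all but Cfb and Cd55. Only 86 genes (0.431%) were higher on array 2 by at least 0.5 in both, and these included C1qa and C1qc. The pattern moves with the sex-linked RNA, Adgre1 and, in GM-BMDC, the macrophage gene list given above, and the part of these in it was not tested.

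Cfb, the gene of factor B, stood highest in GM-BMM. It measured 7.13 and 6.95 in GM-BMDC, 10.45 and 11.72 in GM-BMM, and 8.69 and 8.54 in M-BMM. The 3 populations did not overlap, and the order ran from GM-BMM through M-BMM to GM-BMDC. Cfb was 16.5-fold lower in GM-BMDC than in GM-BMM (-4.05 ± 0.35, adjusted p = 0.000687 by limma). It was 5.55-fold higher in GM-BMM than in M-BMM (2.47 ± 0.35, adjusted p = 0.00724 by limma). It was 2.97-fold lower in GM-BMDC than in M-BMM (-1.57 ± 0.35, adjusted p = 0.0219 by limma).

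The GM-BMM arrays differed by 1.27 for Cfb, and so set the size of its differences. Without GM-BMM array 2, GM-BMDC minus GM-BMM was -3.41 and GM-BMM minus M-BMM 1.84, and without GM-BMM array 1 they were -4.68 and 3.11, all called. The call between GM-BMM and M-BMM was lost without M-BMM array 1 (2.54, adjusted p = 0.0854) or array 2 (2.40, adjusted p = 0.100). The call between GM-BMDC and M-BMM was lost without GM-BMDC array 1 (-1.66, adjusted p = 0.0782), GM-BMDC array 2 (-1.48, adjusted p = 0.0865), M-BMM array 1 (-1.50, adjusted p = 0.155) or M-BMM array 2 (-1.64, adjusted p = 0.114). Without both GM-CSF arrays numbered 1, the differences were -4.77, 3.11 and -1.66 and all were called.

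Its neighbour on the chromosome, C2, which encodes the counterpart of factor B in the classical and lectin pathways, did not show this pattern. C2 measured 5.23 and 5.19 in GM-BMDC, 5.33 and 5.56 in GM-BMM, and 5.36 and 5.23 in M-BMM. Its GM-BMDC minus GM-BMM difference was -0.24 ± 0.13 (95% interval -0.53 to 0.06, adjusted p = 0.328 by limma), and its signal lay close to the low line on all 6 arrays.

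Cfp, the gene of properdin, lies on the X chromosome and differed little between the macrophage populations. It measured 11.18 and 11.96 in GM-BMDC, 11.97 and 12.08 in GM-BMM, and 12.15 and 12.20 in M-BMM. The populations did not overlap, and GM-BMDC array 1 stood below the rest. The part of the sex-linked differences between arrays, given above, in these values was not tested. The differences were -0.46 ± 0.23 for GM-BMDC minus GM-BMM (95% interval -1.003 to 0.08, adjusted p = 0.296 by limma), -0.15 ± 0.23 for GM-BMM minus M-BMM (-0.69 to 0.40, adjusted p = 0.827 by limma) and -0.61 ± 0.23 for GM-BMDC minus M-BMM (-1.15 to -0.07, adjusted p = 0.131 by limma). Without GM-BMDC array 2, GM-BMDC was called lower than GM-BMM (-0.85, adjusted p = 0.0123) and than M-BMM (-0.998, adjusted p = 0.00504). The 3 differences were -0.13, -0.09 and -0.22 without both GM-CSF arrays numbered 1, and none was called.

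The receptor of the fragment C3a, encoded by C3ar1, was lower in GM-BMDC than in both macrophage populations. C3ar1 measured 11.49 and 11.92 in GM-BMDC, 12.59 and 12.84 in GM-BMM, and 12.97 and 12.94 in M-BMM. The populations did not overlap, with the GM-BMDC arrays lowest. C3ar1 was 2.02-fold lower in GM-BMDC than in GM-BMM (-1.01 ± 0.17, adjusted p = 0.00925 by limma) and 2.39-fold lower in GM-BMDC than in M-BMM (-1.25 ± 0.17, adjusted p = 0.00227 by limma). The macrophage populations differed by -0.24 ± 0.17 for GM-BMM minus M-BMM (95% interval -0.63 to 0.15, adjusted p = 0.522 by limma). Both calls were made without each of the 6 arrays in turn, and without both GM-CSF arrays numbered 1, when the differences were -0.92 and -1.04.

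The C3ar1 promoter is shown because the gene's calls were the steadiest of the receptors and because it held more of the 5 motifs searched than the other 5 member promoters searched, those of C1qb, C1qc, C5ar1, Cfp and Cd55. It lies at chr6:122856108-122856407 on the minus strand.
C3ar1: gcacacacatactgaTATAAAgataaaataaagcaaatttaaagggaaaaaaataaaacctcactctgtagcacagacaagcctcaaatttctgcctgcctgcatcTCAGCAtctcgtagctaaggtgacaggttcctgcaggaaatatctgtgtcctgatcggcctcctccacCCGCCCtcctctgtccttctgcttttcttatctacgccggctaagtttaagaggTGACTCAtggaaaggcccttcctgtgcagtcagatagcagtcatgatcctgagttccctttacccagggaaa
The capitals mark matches, on either strand, to the AP-1 motif TGANTCA (7.81% of promoters), the MAF-type motif TGCTGA, the GC box and TATAAA (13.6% of promoters). The TATAAA match lies at -235 from the annotated start, so it is a run of letters and is not shown to be a TATA box.

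C5ar1, the gene of the main C5a receptor, varied most within GM-BMDC. It measured 6.91 and 8.22 in GM-BMDC, 9.11 and 9.51 in GM-BMM, and 8.74 and 8.71 in M-BMM. The populations did not overlap, and GM-BMM was highest. C5ar1 was 3.36-fold lower in GM-BMDC than in GM-BMM (-1.75 ± 0.37, adjusted p = 0.0266 by limma). It did not pass the test in GM-BMDC minus M-BMM (-1.16 ± 0.37, 95% interval -2.03 to -0.28, adjusted p = 0.0808 by limma) or in GM-BMM minus M-BMM (0.59 ± 0.37, -0.28 to 1.47, adjusted p = 0.482 by limma).

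These C5ar1 values turned on single arrays. GM-BMDC minus GM-BMM was -1.09 without GM-BMDC array 1 and -2.41 without GM-BMDC array 2, called in both cases, and the call was lost without GM-BMM array 2 (-1.55, adjusted p = 0.117) and without either M-BMM array (-1.75, adjusted p = 0.0780). Without GM-BMDC array 2, GM-BMDC minus M-BMM was -1.82 and was called (adjusted p = 0.00183). Without both GM-CSF arrays numbered 1 all 3 differences were called, at -1.29 for GM-BMDC minus GM-BMM, 0.79 for GM-BMM minus M-BMM (adjusted p = 0.0126) and -0.50 for GM-BMDC minus M-BMM (adjusted p = 0.0479). The neighbouring gene C5ar2, which encodes another C5a receptor, measured 7.17 and 7.66 in GM-BMDC, 8.31 and 8.08 in GM-BMM, and 8.01 and 8.16 in M-BMM. It was lower in GM-BMDC than in GM-BMM (-0.78, adjusted p = 0.0343 by limma) and than in M-BMM (-0.67, adjusted p = 0.0429 by limma). The C5ar2 call against GM-BMM was made without GM-BMDC array 2 and in no other fit that left out 1 array, with adjusted p from 0.0649 to 0.136 in the others. The call against M-BMM was lost without GM-BMDC array 1 (-0.42, adjusted p = 0.179) and without M-BMM array 1 (-0.74, adjusted p = 0.153) or 2 (-0.60, adjusted p = 0.211). Neither call was made without both GM-CSF arrays numbered 1 (-0.42 in both).

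Cd55, which encodes decay-accelerating factor, showed the widest span of the members. Its promoter is shown because this gene, of the 8 members, differs most between the GM-CSF and M-CSF cultures. It lies at chr1:130462695-130462994 on the minus strand. The start used lies inside the annotated span of the gene and not at its outer 5′ end, so the sequence may not be the only Cd55 promoter.
Cd55: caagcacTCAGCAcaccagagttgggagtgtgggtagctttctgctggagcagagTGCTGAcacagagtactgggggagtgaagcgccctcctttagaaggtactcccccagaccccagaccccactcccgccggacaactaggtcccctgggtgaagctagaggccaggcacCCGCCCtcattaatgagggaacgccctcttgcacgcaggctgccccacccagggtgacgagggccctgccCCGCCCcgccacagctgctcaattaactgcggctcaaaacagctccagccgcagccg
The capitals mark a pair of GC boxes and a pair of MAF-type motifs, on either strand. The sequence held 12 CpG, against a median of 7 over all promoters, and 60.4% of promoters held fewer. Its share of G and C was 63.3%, against a median of 52.7%.

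Cd55 measured 4.21 and 4.47 in GM-BMDC, 5.69 and 5.03 in GM-BMM, and 9.69 and 9.61 in M-BMM. The populations did not overlap, and both GM-BMDC arrays and GM-BMM array 2 were low, the last just under the line. Cd55 was 39.7-fold lower in GM-BMDC than in M-BMM (-5.31 ± 0.21, adjusted p = 1.88e-05 by limma) and 19.6-fold lower in GM-BMM than in M-BMM (-4.29 ± 0.21, adjusted p = 7.33e-05 by limma). Since the GM-BMDC mean of 4.34 is low, the first of these folds depends on the signal of a probe set at background level. The GM-BMM mean of 5.36 lies near the low line, so the second fold may depend on background in part. Both calls were made without each array in turn, and without both GM-CSF arrays numbered 1 the differences were -5.18 and -4.62.

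Between the GM-CSF populations, Cd55 was 2.03-fold lower in GM-BMDC than in GM-BMM (-1.02 ± 0.21, adjusted p = 0.0253 by limma), with both means near or under the low line. This call was lost without GM-BMDC array 1 (-0.89, adjusted p = 0.137), GM-BMM array 1 (-0.69, adjusted p = 0.0510) or either M-BMM array (-1.02, adjusted p = 0.0728). It was also lost without both GM-CSF arrays numbered 1 (-0.55, adjusted p = 0.0825).

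The neighbouring copy Cd55b ran in the same direction against M-BMM. It measured 3.90 and 3.74 in GM-BMDC, 3.75 and 3.83 in GM-BMM, and 6.35 and 5.65 in M-BMM. The 4 GM-CSF arrays were low and overlapped, and both M-BMM arrays lay above them. Cd55b was 4.52-fold lower in GM-BMDC than in M-BMM (-2.18, adjusted p = 0.000645 by limma) and 4.61-fold lower in GM-BMM than in M-BMM (-2.21, adjusted p = 0.00130 by limma), and both calls were made without each array in turn. Cd55 and Cd55b are near-identical copies, and probes of one may also bind RNA of the other, so how far their signals are separate is uncertain.

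**Figure D3:**
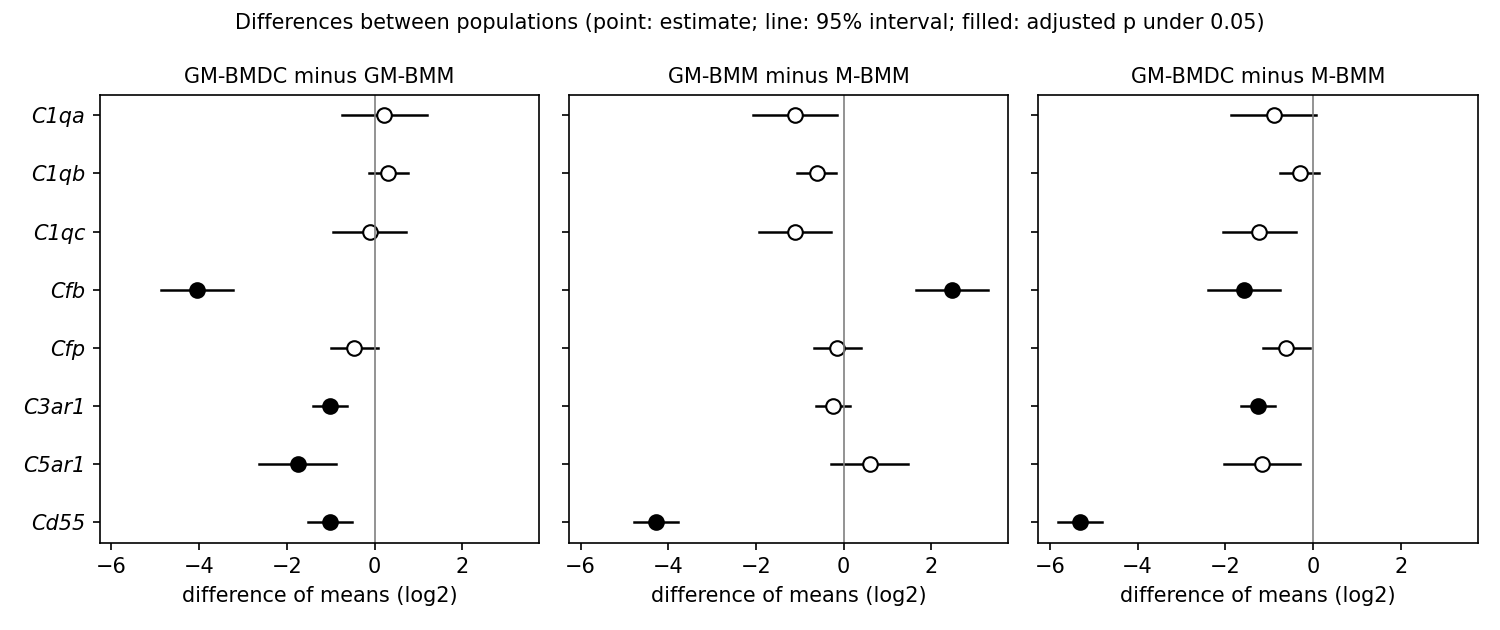
Log2 difference of group means for the 8 complement genes, with 1 panel per comparison; points are estimates from limma, lines are 95% intervals, and filled points have an adjusted p under 0.05. Cfb is called on opposite sides of 0 in the first and second panels, at -4.05 and 2.47, and Cd55 is called below 0 in all 3.

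**Figure D4:**
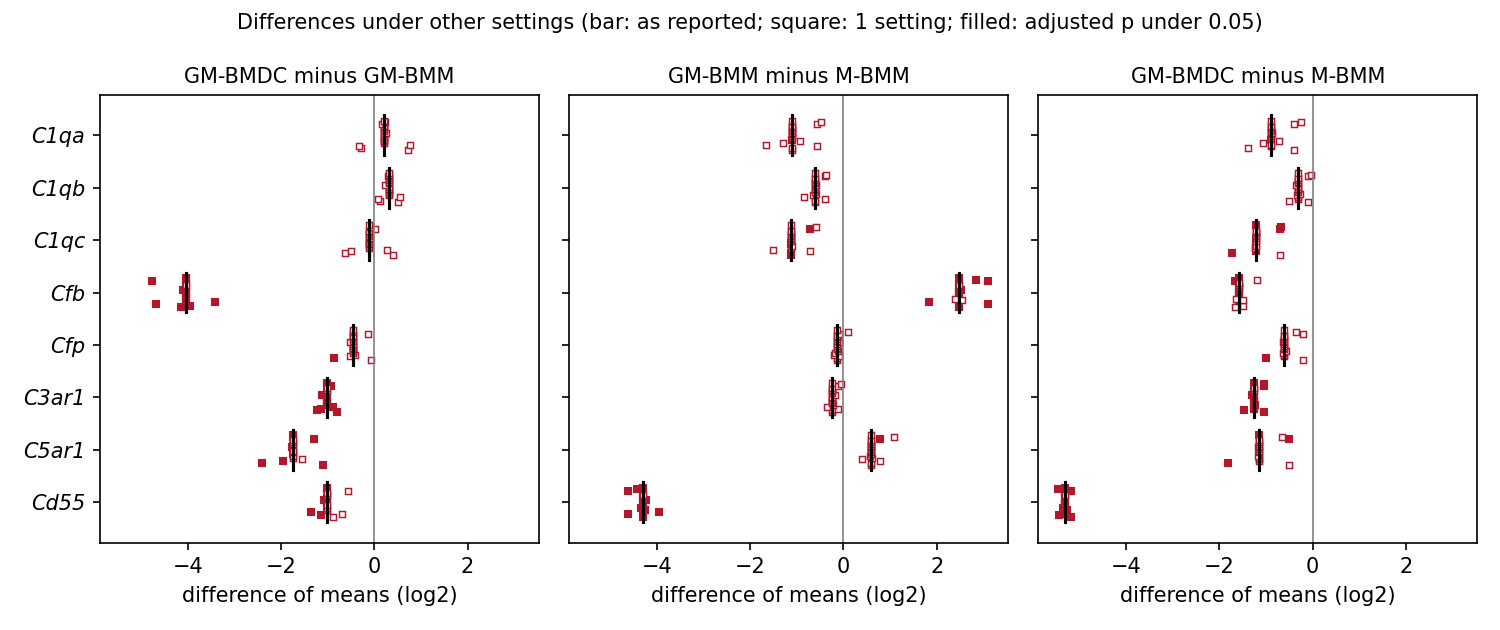
The same differences (log2) under 18 other settings of the analysis, with a black bar for the value as reported and a red square for each setting, filled where the adjusted p was under 0.05. The Cd55 squares against M-BMM and the Cfb squares for GM-BMDC minus GM-BMM stay far from 0. Open and filled squares mix for C5ar1 and C1qc, for Cd55 in GM-BMDC minus GM-BMM and for Cfb in GM-BMDC minus M-BMM. Cfp has 1 filled square in each comparison of GM-BMDC.

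The rest of the pathway was read from a list of 52 other complement genes, of which 47 were measured. In GM-BMDC minus GM-BMM, 3 were called higher and 11 lower, in GM-BMM minus M-BMM 4 higher and 3 lower, and in GM-BMDC minus M-BMM 3 higher and 7 lower. The shares of all genes called higher and lower were 4.69% and 5.74%, 3.62% and 2.57%, and 7.76% and 8.9% in these comparisons. Without both GM-CSF arrays numbered 1, the list's calls were 2 higher and 7 lower, 5 and 5, and 3 and 6. The list's median differences were -0.01, 0.02 and -0.08. In all, 16 genes were called in at least 1 comparison. Of the 31 calls, 16 were made in every fit that left out 1 array.

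The proteases of the C1 complex shared the GM-BMM peak of Cfb. C1s1, a gene of the protease C1s, measured 3.88 and 3.75 in GM-BMDC, 6.29 and 6.93 in GM-BMM, and 3.57 and 3.39 in M-BMM. C1ra, a gene of the protease C1r, measured 5.88 and 6.13 in GM-BMDC, 7.54 and 7.95 in GM-BMM, and 5.70 and 6.26 in M-BMM. Both genes were higher on both GM-BMM arrays than on any other, and C1s1 was low on the other 4. C1s1 was 6.93-fold lower in GM-BMDC than in GM-BMM (-2.79 ± 0.21, adjusted p = 0.000392 by limma) and 8.76-fold higher in GM-BMM than in M-BMM (3.13 ± 0.21, adjusted p = 0.000231 by limma). C1ra was 3.34-fold lower in GM-BMDC than in GM-BMM (-1.74, adjusted p = 0.00307 by limma) and 3.41-fold higher in GM-BMM than in M-BMM (1.77, adjusted p = 0.00402 by limma). C1s2 was higher in GM-BMM than in M-BMM too (1.28, adjusted p = 0.00102 by limma). It measured 4.06 and 3.89 in GM-BMDC, 5.31 and 5.43 in GM-BMM, and 4.07 and 4.11 in M-BMM. Its GM-BMDC and M-BMM arrays were low, so this difference may measure GM-BMM against background. All of these calls were made without each array in turn and without both GM-CSF arrays numbered 1. C1s1 and C1s2, like C1ra and its copy C1rb, which was not analysed here, are close copies side by side on the chromosome, and the split of signal between copies is uncertain.

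Stromal cells also make C1r and C1s. Of 8 fibroblast and stromal genes, 0 were called higher and 1 lower in GM-BMDC than in GM-BMM, and 1 higher and 0 lower in GM-BMM than in M-BMM. Both calls were of Dcn, the gene of the matrix protein decorin. Dcn measured 5.56 and 5.68 in GM-BMDC, 7.63 and 6.94 in GM-BMM, and 6.42 and 6.03 in M-BMM. It was highest on the GM-BMM arrays, like C1s1 and C1ra, but not all of the list followed it. The mean of Pdgfrb was also highest in GM-BMM, at 6.34. The means of Col1a1, Col1a2 and Col3a1 were lowest there, at 6.96, 6.74 and 6.48, and none of these genes was called. The list's mean signal was 5.76 to 5.84 in GM-BMDC, 6.03 to 6.04 in GM-BMM, and 5.89 to 5.95 in M-BMM. The part of such cells in the C1s1 and C1ra values was not tested.

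The integrin alpha chain genes of complement receptors CR3 and CR4 ran in opposite directions in GM-BMDC against either macrophage population. Itgb2, the gene of their beta chain, was lower in GM-BMDC than in GM-BMM (-0.53, adjusted p = 0.0415 by limma). That call was lost in most fits without 1 array, and Itgb2 was not called in the other comparisons. Itgax, the alpha chain of complement receptor CR4 and the gene of CD11c, measured 11.87 and 11.80 in GM-BMDC, 10.72 and 10.05 in GM-BMM, and 6.01 and 5.71 in M-BMM. The populations did not overlap, with GM-BMDC highest. Itgax was 62.9-fold higher in GM-BMDC than in M-BMM (5.97, adjusted p = 1.56e-05 by limma), 23.0-fold higher in GM-BMM than in M-BMM (4.53, adjusted p = 6.53e-05 by limma), and higher in GM-BMDC than in GM-BMM (1.45), in each fit without 1 array as well. Itgam, the alpha chain of CR3 and a gene of the M-BMM gate, measured 9.67 and 10.75 in GM-BMDC, 11.81 and 11.77 in GM-BMM, and 11.87 and 11.84 in M-BMM. Its GM-BMM minus M-BMM difference was -0.07 ± 0.30 (adjusted p = 0.951 by limma). Itgam was lower in GM-BMDC than in GM-BMM (-1.58, adjusted p = 0.0170 by limma) and than in M-BMM (-1.64, adjusted p = 0.00961 by limma). GM-BMDC array 1 stood lowest. The call against GM-BMM was lost without either GM-BMM or either M-BMM array (adjusted p from 0.0567 to 0.0625), and that against M-BMM without M-BMM array 1 (adjusted p = 0.0883) or 2 (adjusted p = 0.0777). Without GM-BMDC array 1 the differences were -1.04 and -1.10, and with both GM-CSF arrays numbered 1 left out -1.02 and -1.10, all called.

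**Figure D5:**
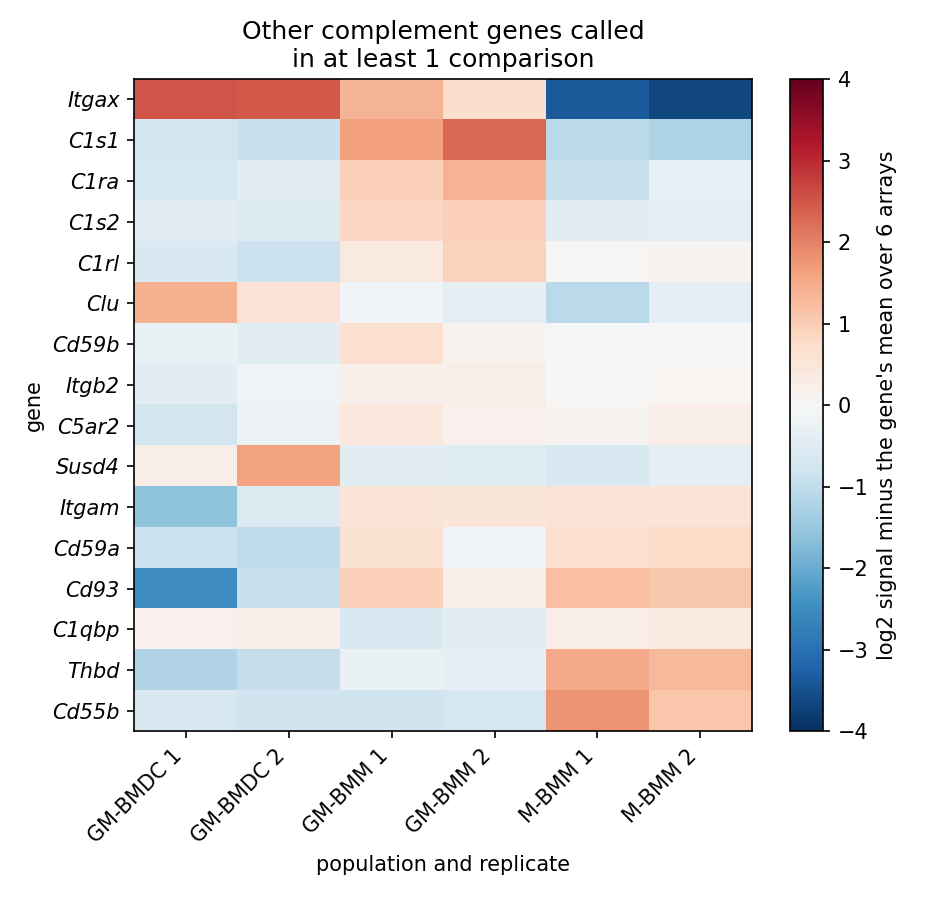
Signal of the 16 other complement genes called in at least 1 comparison, as log2 signal minus each gene's mean over the 6 arrays, with arrays of GM-BMDC, GM-BMM and M-BMM from left to right. C1s1, C1ra and C1s2 are highest on the GM-BMM arrays, Itgax is lowest on the M-BMM arrays, and Thbd and Cd55b are highest there.

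Several other surface genes were lower in GM-BMDC than in M-BMM. Cd93, a phagocyte surface protein once described as a C1q receptor, measured 7.63 and 9.21 in GM-BMDC, 11.10 and 10.36 in GM-BMM, and 11.35 and 11.21 in M-BMM. It was 7.27-fold lower in GM-BMDC than in M-BMM (-2.86, adjusted p = 0.00590 by limma) and lower than in GM-BMM (-2.31, adjusted p = 0.0215 by limma). The Cd93 call against M-BMM was lost without M-BMM array 1 (adjusted p = 0.0691) or 2 (adjusted p = 0.0570), and that against GM-BMM without GM-BMM array 1 (-1.95, adjusted p = 0.0858) or either M-BMM array (adjusted p = 0.0684). GM-BMDC array 1 was the lowest, and without it the Cd93 differences were -2.07 against M-BMM and -1.52 against GM-BMM, both called.

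Thbd and Cd59a gave steadier calls against M-BMM than against GM-BMM. Cd59a, which encodes an inhibitor of the membrane attack complex, measured 6.24 and 6.10 in GM-BMDC, 7.72 and 7.01 in GM-BMM, and 7.75 and 7.89 in M-BMM, and was lower in GM-BMDC than in M-BMM (-1.64, adjusted p = 0.00238 by limma) in every fit without 1 array. Thbd, the gene of thrombomodulin and the neighbour of Cd93, measured 5.72 and 5.98 in GM-BMDC, 6.66 and 6.55 in GM-BMM, and 8.45 and 8.23 in M-BMM. The 3 populations did not overlap. Thbd was lower in GM-BMDC than in M-BMM (-2.49, adjusted p = 7.10e-05 by limma) and lower in GM-BMM than in M-BMM (-1.74, adjusted p = 0.000600 by limma), again in every such fit. Against GM-BMM, Cd59a was lower in GM-BMDC (-1.19, adjusted p = 0.0148 by limma), at -0.84 without GM-BMM array 1 and -1.55 without array 2, and the call was lost without either GM-BMDC array (adjusted p = 0.0589 and 0.0586) or either M-BMM array (adjusted p = 0.0501). Thbd was lower in GM-BMDC than in GM-BMM too (-0.75, adjusted p = 0.0159 by limma), a call lost without GM-BMDC array 1 (-0.62, adjusted p = 0.0856), without GM-BMM array 1 (-0.70, adjusted p = 0.0635) and without both (-0.57, adjusted p = 0.107).

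The genes called higher in GM-BMDC than in M-BMM besides Itgax were Clu, which encodes the fluid-phase regulator clusterin (1.72, adjusted p = 0.00971 by limma), and Susd4 (1.44, adjusted p = 0.0382 by limma). Clu lost its call without M-BMM array 1 (1.38, adjusted p = 0.0953). Susd4 measured 6.22 and 7.58 in GM-BMDC and 5.34 and 5.57 in M-BMM, was 0.77 without GM-BMDC array 2 and lost its call without M-BMM array 1 (adjusted p = 0.223) or 2 (adjusted p = 0.143). The calls given here for Itgax, Cd93, Cd59a, Clu, Susd4 and Cd55b, and those for Thbd against M-BMM, were also made without both GM-CSF arrays numbered 1; Cd93 was then -1.16 against GM-BMM and Susd4 2.12 against M-BMM.

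For each member whose group means spanned at least 1 log2 unit, the genes with the most like pattern were found by the root mean square difference of gene-centred log2 values over the 6 arrays. Cd55 was most like Cd5l (0.463) and Ptprm (0.474), against a median of 2.31 over all genes, and Cd5l measured 5.15 and 5.40 in GM-BMDC, 6.19 and 5.93 in GM-BMM, and 11.42 and 11.37 in M-BMM. Cfb was most like Mmp2 (0.3796) and Slfn4 (0.409), against a median of 1.72, and Mmp2 measured 7.07 and 7.20 in GM-BMDC, 11.44 and 11.72 in GM-BMM, and 8.55 and 8.58 in M-BMM. The likeness covers the order of the populations, while the Mmp2 arrays of GM-BMM lay closer together than those of Cfb. C3ar1 was most like Slc8b1 (0.0656) and Itm2b (0.0679), and C5ar1 most like Rnf128 (0.155) and Pilrb2 (0.160). C1qc was most like Scarna13 (0.166) and Frmd4b (0.168), and C1qa most like Srsy (0.141), a Y-linked gene, and Tlr9 (0.238). These are descriptions over 6 arrays, with no test.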

How the data were processed

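RNA of 6 sorted samples was measured on 1 Affymetrix array each. The deposited values are log2 signals that the authors made with Affymetrix Expression Console 1.1 and RMA, per the submitters' processing notes, a method that subtracts background, quantile-normalises the arrays and gives 1 value per probe set. The genome build of the array annotation is not given in the sources used here, so gene coordinates are not given; promoter sequences, coordinates and gene neighbours come from RefSeq on GRCm38.p6. Of 35556 probe sets, 21789 had 1 listed gene, 1621 several and 12146 none. For the 999 genes with more than 1 probe set, that with the highest mean was kept, leaving 19938 genes. Arrays have no read depth; precision is limited by having 2 of them per population, and log2 differences had a median standard error of 0.132.

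The 3 comparisons were fitted jointly over the 6 arrays in limma 3.58.1 (R 4.3.3), without covariates, a filter or a pseudocount, with 3 residual and 4.34 prior degrees of freedom, two-sided tests and Benjamini-Hochberg adjustment over all genes at 0.05. The members and lists were chosen with earlier results of these data known. All members are named. Of the other complement genes, the 4 with the largest difference in each direction per comparison among those called may be named, and those that act directly with a member (among them C2, C4b, Cfd, C5ar2, Itgam, Itgax, Itgb2, Vsig4, Cr1l, Cd46, Cd59a, Cd93 and Serping1). Likeness names 2 genes per member and leaves out predicted and clone names. Xist, Eif2s3y and Adgre1 fall outside the rule and were taken up for their values. Alternatives, 17 planned and 1 added after seeing the data, changed the arrays, the block, the variance model, the filter, the probe set rule and the fold required; where 1 array remains, its variance is taken from the rest. The script was tested on simulated data. Tables and figures used Python 3.11.15, pandas 2.3.3, NumPy 2.4.6, SciPy 1.17.1 and matplotlib 3.10.9.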

Additional observations from a re-analysis of the deposited data

How the results depend on the processing

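Over 18 alternatives, the 24 member differences gave 432 values, of which 368 kept their direction and side of the threshold, 35 lost a call, 23 gained one and 6 changed sign. The sign changes were of differences not called: C1qa in GM-BMDC minus GM-BMM was -0.28 without GM-BMDC array 2 and -0.34 without GM-BMM array 1; C1qc there was 0.41 without GM-BMDC array 1, 0.28 without GM-BMM array 2 and 0.016 without both GM-CSF arrays numbered 1; and Cfp in GM-BMM minus M-BMM was 0.10 with a covariate averaged over 3 Y-linked genes. Without 1 array at a time, C1qa there ranged from -0.34 to 0.77 and C1qc from -0.62 to 0.41. All 31 calls of other complement genes kept their direction in every alternative. The cause of these changes was not tested.

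Leaving out 1 array at a time, members called ranged from 2 to 5 in GM-BMDC minus GM-BMM (4 with all arrays), 1 to 3 in GM-BMM minus M-BMM (2) and 2 to 5 in GM-BMDC minus M-BMM (3). Other complement genes called ranged from 7 to 13, 6 to 9 and 4 to 10, beside 14, 7 and 10. All genes called ranged from 1102 to 2055, 319 to 1347 and 1288 to 3412, beside 2079, 1235 and 3323. Without limma's moderation, 0 members and 0 other complement genes were called in each comparison, with 0, 8 and 17 of all genes, although 3686, 3075 and 4628 genes had an unadjusted p under 0.05. When a difference had to exceed 1.5-fold, 1 member and 3 other complement genes were called in GM-BMDC minus GM-BMM. In GM-BMDC minus M-BMM the counts were 1 and 5. In GM-BMM minus M-BMM, Cfb and Cd55 kept their calls, as did C1s1, C1s2, C1ra, Cd55b, Itgax and Thbd. Of all genes, 490 were called in GM-BMDC minus GM-BMM, 314 in GM-BMM minus M-BMM and 871 in GM-BMDC minus M-BMM. With only the 2 groups compared in the fit, GM-BMDC minus GM-BMM gave 2 members, 7 other complement genes and 1207 of all genes, and with all probe sets tested 2 members and 6 other complement genes. Without both GM-CSF arrays numbered 1, 4 members were called in GM-BMM minus M-BMM, 5 in GM-BMDC minus M-BMM, and 9 other complement genes in GM-BMDC minus GM-BMM. Among genes above the median signal, 4 other complement genes were called in GM-BMM minus M-BMM, since fewer genes were tested. With the Y-linked covariate, 2114 of all genes were called in GM-BMDC minus M-BMM.

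The replicate numbers were not shown to pair the arrays: the deviations of same-numbered arrays correlated at 0.0240 between GM-BMDC and GM-BMM, 0.0263 between GM-BMM and M-BMM and -0.132 between GM-BMDC and M-BMM. With the replicate number as a block, 4 members were called in GM-BMM minus M-BMM and 6 in GM-BMDC minus M-BMM, and 4 in GM-BMDC minus GM-BMM, while 1176, 3060 and 1963 of all genes were called there. The block added calls of C1qa (adjusted p = 0.0202 and 0.0226 by limma) and C1qc (adjusted p = 0.0387 and 0.0128 by limma) against M-BMM, and of C5ar1 in GM-BMDC minus M-BMM (adjusted p = 0.0365 by limma). With the M-BMM numbers crossed, an alternative chosen after seeing the data, 5 members and 3155 of all genes were called in GM-BMDC minus M-BMM.

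The limits are those of 2 arrays per population with unknown animals, a signal floor that the files do not mark, and probe sets on which close gene copies cannot be told apart.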

Other observations

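Some genes of the late and lectin pathways varied little. Across the 6 arrays Hc, the gene of C5, lay between 4.98 and 5.26, C6 between 4.65 and 5.16, C8a between 5.11 and 5.47, and Masp1 between 5.10 and 5.56, and none of these was called in any comparison. Other genes of these pathways measured higher, such as C8g, which lay between 6.24 and 6.80. C7, C9, Mbl1, Vsig4, Cpn1 and Cpn2 were the 6 measured list genes that were low on all arrays. These examples were picked with their values in view.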
